A study of Mus musculus with 18 samples.

Results

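The genes of Wnt signaling that act outside the cell or at its surface were examined in mouse mammary tumors: Wnt ligands, their Frizzled receptors and Lrp5 and Lrp6 co-receptors, and the secreted proteins that bind or modulate them. Members were protein-coding genes whose GENCODE symbol is a Wnt, Fzd, Sfrp, Dkk or Rspo symbol with its number, or Lrp5, Lrp6, Wif1 or Frzb. This rule took 45 of the 57126 genes counted, or 45 of 21685 protein-coding genes: 19 Wnt ligands, 10 Frizzleds, 2 co-receptors, 6 antagonists that bind Wnts (Sfrp1, Sfrp2, Sfrp4, Sfrp5, Frzb and Wif1), 4 Dickkopf genes and 4 R-spondins. The series holds bulk RNA sequencing of 18 tumors: 7 MaP R172H/- tumors, 5 MaP R245W/- tumors and 6 MaP -/- tumors. MaP names a somatic model in which adenovirus with Cre recombinase (Ad-Cre) was injected into the mammary gland of young adult females, F1 hybrids of BALB/c and C57BL6/J. Cre switched the infected cells from wild-type Trp53 to 1 missense allele (R172H or R245W) with the other allele lost, or to loss of both alleles, so stroma and immune cells kept wild-type Trp53. All groups received Ad-Cre, there was no normal gland, and the MaP -/- tumors are the reference. Among the MaP R172H/- tumors 3 of 7 carried Rosa26LSL-TdTomato/+, as did 3 of 5 MaP R245W/- tumors and 0 of 6 MaP -/- tumors. The 6 MaP -/- tumors represent only 4 mice, since mice JM663 and JM833 gave 2 each. Tumors are named as in the labels, but for JM779-T1 and JM836-T1 the study's own tumor list marks the other tumor of the mouse as the sequenced one, so which tumor of these 2 mice was sequenced is uncertain, while the genotype is the same.

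Wnts are secreted, lipid-modified proteins that bring a Frizzled and Lrp5 or Lrp6 together, which protects beta-catenin from destruction so that it can act with TCF/LEF factors in the nucleus. Some Wnts, Wnt5a among them, act mainly through Frizzleds and other receptors without beta-catenin. Sfrp proteins, Frzb and Wif1 bind Wnts, Dickkopf proteins act on the co-receptors, and R-spondins raise the signal by keeping Frizzleds at the surface. In the mammary gland Wnt4 and Rspo1 act below progesterone on stem and progenitor cells, and Wnt1, Wnt3, Wnt10b and Rspo2 are known from tumors in which mouse mammary tumor virus inserted beside them.

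Each tumor had between 23113578 and 37365062 counts. Levels are in CPM, counts per 1000000 counts of a tumor, with library sizes scaled by the trimmed mean of M values (TMM), and levels are compared between genes only as CPM per kb of exon. Trp53 was at 10.8 to 50.3 CPM in MaP R172H/- tumors (median 45.8), 9.09 to 59.0 in MaP R245W/- tumors (median 27.1) and 9.43 to 21.6 in MaP -/- tumors (median 12.2). Tumors YZ11 (MaP R172H/-), JM1233 and RM0014 (both MaP R245W/-) lay below the highest MaP -/- tumor, so the Trp53 level did not separate the groups. MaP R172H/- tumors were sequenced on an Illumina HiSeq and all others on a NovaSeq, so in every comparison with MaP R172H/- tumors genotype and platform cannot be told apart. The study classed all MaP R172H/- tumors as luminal B or HER2-enriched, and all others as triple-negative, by Esr1, Pgr and Erbb2. All MaP R172H/- tumors were nonmetaplastic adenocarcinomas, while both other groups included metaplastic tumors. Tumor subtype thus cannot be told apart from genotype in these comparisons. In bulk tumors fewer cells of a type and less RNA per cell cannot be told apart either. The tumors also differed in markers of other cells: the summed level of 7 fibroblast markers ran from 2414 to 6970 CPM in MaP R172H/- tumors, 2713 to 29110 in MaP R245W/- tumors and 3573 to 6626 in MaP -/- tumors. For 7 adipocyte markers the ranges were 8.39 to 452, 11.6 to 79.1 and 25.1 to 5547 CPM, for 7 basal and myoepithelial markers 245.2 to 3460, 139 to 801 and 45.8 to 722, and for 7 luminal markers 375 to 8162, 454 to 5920 and 147 to 2632. For 6 leukocyte markers they were 347.5 to 449, 274 to 1704 and 424 to 1081 CPM, and for 5 endothelial markers 154 to 244, 125 to 514 and 222 to 431. No marker of these 6 lists was at 0 throughout a group. In MaP R172H/- against MaP -/- tumors, where 8.4% of all genes passed the test, 5 markers did, all lower. They were Ptprc (-1.24, log2) and Adgre1 (-1.04) of leukocytes, Pecam1 (-0.77) of endothelium, and Pdgfra (-2.49) and Lum (-1.98) of fibroblasts. Their edgeR adjusted p lay between 0.00688 and 0.0265. Ptprc and Pecam1 did not overlap between those groups, as was so for 4.62% of all genes. The fibroblast list was mixed in this comparison: 2 of its 7 markers were above 0, Col1a1 (0.64) and Col1a2 (0.12), and neither passed. All 6 leukocyte and 5 endothelial markers were below 0. Between the mutants, where 9.4% of all genes passed, the luminal gene Foxa1 was higher in MaP R172H/- tumors (4.07). Lum (-2.60), Adgre1 (-1.31) and the skeletal muscle genes Acta1 (-6.01), Tnnt3 (-5.57), Mylpf (-3.60) and Myh4 (-4.69) were lower there. The edgeR adjusted p of these genes lay between 0.00244 and 0.0344. Foxa1 was at 0 to 22.3 CPM in MaP R172H/- and 0.0927 to 1.03 in MaP R245W/- tumors. Of the other luminal markers, Krt8 (-0.46) and Krt18 (-0.35) were lower in MaP R172H/- tumors, while Krt19, Epcam, Cdh1 and Elf5 were higher. Of the leukocyte markers, Cd3e (1.13), Cd79a (0.66) and Cd68 (0.13) were higher there, while Ptprc and Csf1r were lower. None of these others passed. The part of these cells in the members' differences was not tested.

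Co-receptors and most Frizzleds were expressed throughout, whereas most ligands, antagonists and R-spondins were patchy, as were Fzd9 and Fzd10. Of the 45 members 18 reached 1 CPM in each of the 18 tumors, 20 did so in some tumors and 7 in no tumor. Both co-receptors and 8 of 10 Frizzleds were in the first class, against 5 of 19 ligands (Wnt2b, Wnt5a, Wnt5b, Wnt7b and Wnt9a), 1 of 6 antagonists (Sfrp1) and 0 of 4 R-spondins. The 7 members below 1 CPM in all tumors were Wnt1, Wnt3, Wnt3a, Wnt8a, Wnt8b, Dkk1 and Dkk4. Of the classic viral insertion genes, Wnt1 had at most 3 counts in a tumor and Wnt3 at most 2, and Wnt3a had 0 counts in all 18 tumors, which allows up to 3 counts in each. Per kb of exon the leading member of each class, as mean ± SD over 18 tumors, was Fzd7 at 23.6 ± 9.01 CPM per kb, Lrp6 at 23.4 ± 5.96, Wnt7b at 17.3 ± 16.2, Sfrp1 at 15.1 ± 8.82, Dkk3 at 8.39 ± 8.37 and Rspo1 at 2.52 ± 7.26. The SD was below the mean for the receptor, the co-receptor and Sfrp1 and close to or above it for Wnt7b, Dkk3 and Rspo1.

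**Figure D1:**
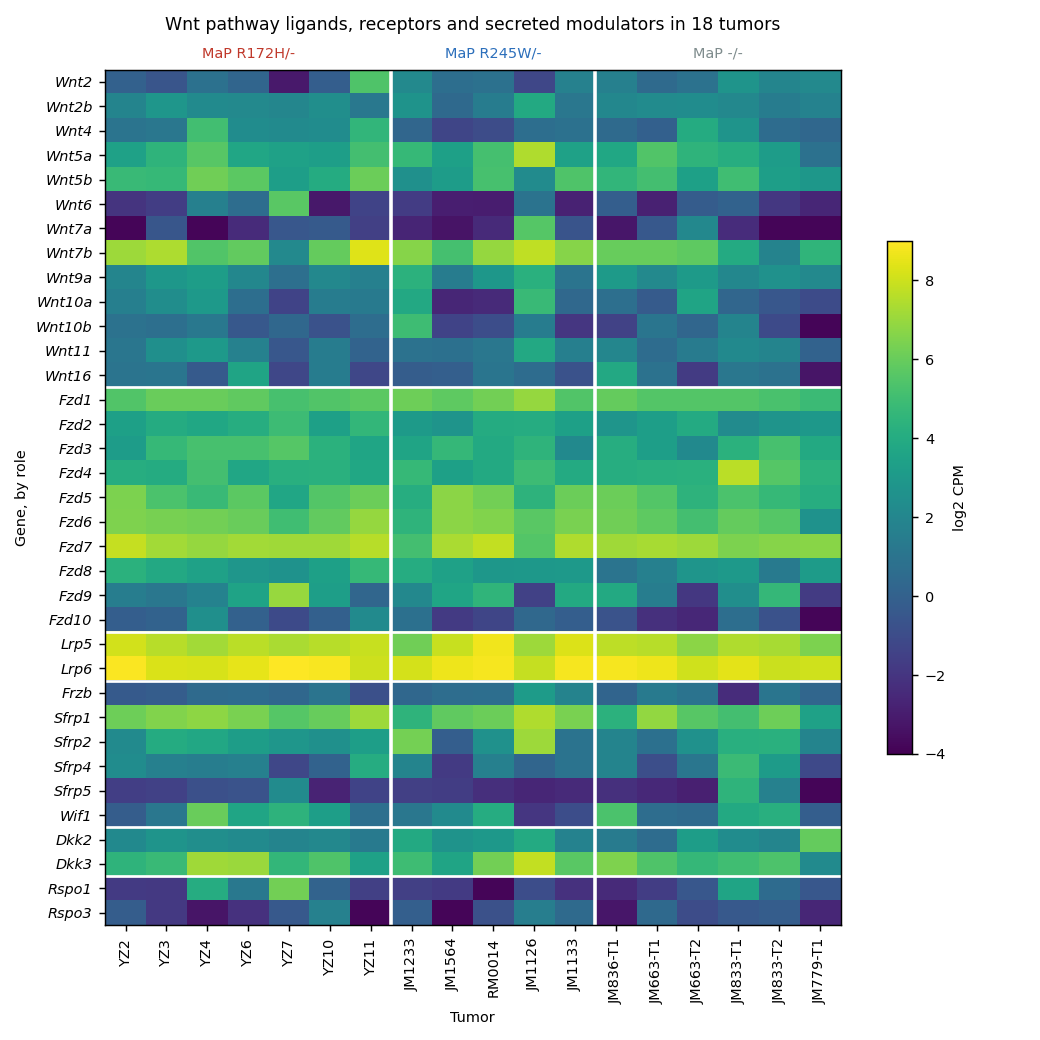
Level of the 35 members tested in at least 1 comparison (rows, by role) in each of 18 tumors (columns, by genotype), as log2 CPM on a color scale from -4 to 9. Lrp5, Lrp6 and Fzd7 are bright in nearly every column, while Wnt6, Wnt7a and Rspo1 are dark except in 1 to a few tumors.

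Wnt7b was the main ligand transcript of these tumors. This Wnt is made by mammary epithelium and signals through beta-catenin in several tissues. It led the ligands, per kb, in 14 of 18 tumors: 5 of 7 MaP R172H/-, 5 of 5 MaP R245W/- and 4 of 6 MaP -/- tumors. In MaP R172H/- tumors its level was lowest at 4.23 CPM (YZ7), had a median of 61.0 and was highest at 330.3 (YZ11). MaP R245W/- tumors had 98.9 (JM1233), 35.8 (JM1564), 123 (RM0014), 214 (JM1126) and 98.9 (JM1133) CPM, and MaP -/- tumors 3.48 (JM833-T2) to 63.0 (JM663-T1) with a median of 38.7. Apart from JM1564, the MaP R245W/- tumors lay above every MaP -/- tumor, while the MaP R172H/- tumors spanned both groups. The log2 fold change against MaP -/- tumors was 1.66 ± 0.80 (SE) for MaP R172H/- tumors and 1.63 ± 0.64 for MaP R245W/- tumors, with edgeR adjusted p of 0.217 and 0.384, and neither passed. Between the mutants the log2 difference was 0.01, with a 95% interval from -1.57 to 1.59.

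Where Wnt7b did not lead, Wnt5b did in YZ4, JM833-T1 and JM833-T2, and Wnt6 did in YZ7. Wnt5b, a relative of Wnt5a, was between 4.73 and 71.9 CPM and followed Wnt7b in 11 of the 14 tumors that Wnt7b led. All 19 ligands together came to 21.1 to 91.2 CPM per kb in MaP R172H/- tumors (median 37.1), 12.2 to 97.7 in MaP R245W/- tumors (median 38.7) and 7.63 to 27.6 in MaP -/- tumors (median 21.9). The 2 highest sums were those of JM1126 and YZ11. Wnt7b made up 42.7% of the ligand sum in JM1126 and 70.6% in YZ11, whereas in YZ7 Wnt6 made up 72.0%.

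**Figure D2:**
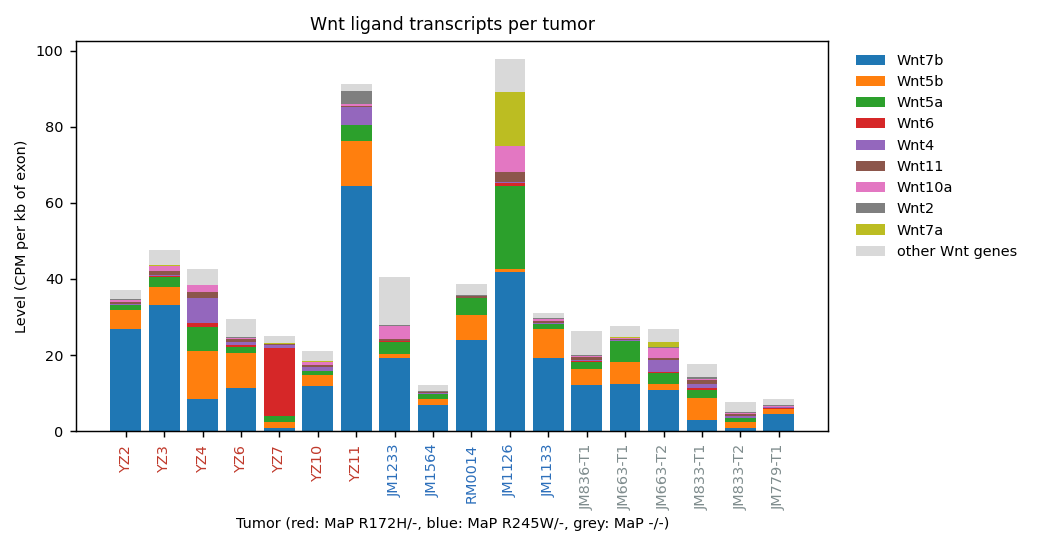
Sum of the 19 Wnt ligands in each tumor, in CPM per kb of exon (y axis, from 0), split by ligand, with tumor names colored by genotype on the x axis. Wnt7b (blue) is the largest part in 14 of 18 tumors, Wnt6 (red) in YZ7, and JM1126 and YZ11 have the highest bars, 97.7 and 91.2.

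Wnt4 was the only member whose levels did not overlap between compared groups. Wnt4 is the ligand through which progesterone acts on neighboring mammary epithelial cells. In MaP R172H/- tumors it was at 1.90 CPM in YZ2, 2.16 in YZ3, 33.2 in YZ4, 4.85 in YZ6, 4.58 in YZ7, 4.89 in YZ10 and 23.4 in YZ11. In MaP R245W/- tumors it was at 1.13 in JM1233, 0.34 in JM1564, 0.43 in RM0014, 1.57 in JM1126 and 1.76 in JM1133. In MaP -/- tumors it was at 1.32 in JM836-T1, 0.908 in JM663-T1, 15.8 in JM663-T2, 6.60 in JM833-T1, 1.45 in JM833-T2 and 1.196 in JM779-T1. All MaP R172H/- tumors were thus above all MaP R245W/- tumors, the nearest being 1.90 and 1.76 CPM, and the MaP -/- tumors overlapped both.

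Rspo1 had a wider range and overlapping groups. It encodes the R-spondin of the mammary luminal lineage, which signals through Lgr receptors. MaP R172H/- tumors had 0.216 CPM in YZ2, 0.212 in YZ3, 16.3 in YZ4, 2.23 in YZ6, 76.1 in YZ7, 1.03 in YZ10 and 0.271 in YZ11. MaP R245W/- tumors had 0.269 in JM1233, 0.216 in JM1564, 0 in RM0014, 0.448 in JM1126 and 0.153 in JM1133. MaP -/- tumors had 0.113 in JM836-T1, 0.254 in JM663-T1, 0.659 in JM663-T2, 12.03 in JM833-T1, 1.38 in JM833-T2 and 0.647 in JM779-T1. YZ7, YZ4 and JM833-T1 stood above 10 CPM, YZ2, YZ3 and YZ11 were no higher than the highest MaP R245W/- tumor, and 14 counts was the most in a MaP R245W/- tumor against 1729 in YZ7.

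**Figure D3:**
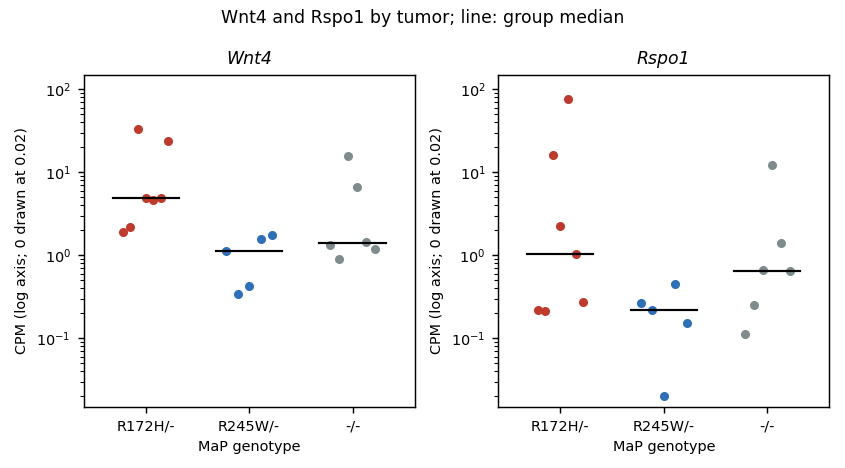
Wnt4 and Rspo1 in each tumor (points) by genotype, in CPM on a log axis, with the group median as a line and 0 drawn at 0.02. For Wnt4 the MaP R172H/- points (1.90 to 33.2) lie above the MaP R245W/- points (0.34 to 1.76), and for Rspo1 the groups overlap.

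In the direct comparison of the mutants, 2 of 35 members tested passed an adjusted p below 0.05 with edgeR's quasi-likelihood test and Benjamini-Hochberg adjustment over all 22481 genes tested, where 9.4% of genes did. Both were higher in MaP R172H/- tumors, a direction in which 2.91% of genes passed. Wnt4 was higher by 3.36 ± 0.96 (log2, SE; 95% interval 1.33 to 5.38; edgeR adjusted p = 0.0357) and Rspo1 by 5.96 ± 1.83 (2.12 to 9.80; edgeR adjusted p = 0.0479). Members not overlapping between the mutants were 1 of 35, against 5.83% of all genes. These calls were near the threshold. Leaving out YZ4 (edgeR adjusted p = 0.0718), YZ11 (0.0598) or any of the 5 MaP R245W/- tumors (0.0527 to 0.0842) ended the Wnt4 call, and the Rspo1 call was lost without YZ4 (0.0657), YZ6 (0.0533), YZ7 (0.0953), YZ10 (0.0517), any MaP R245W/- tumor (0.0804 to 0.0966) or any of JM663-T1, JM663-T2, JM833-T2 and JM779-T1 (0.0502 to 0.0566). Without YZ7 the Rspo1 difference was 3.94. With protein-coding genes alone, tumors of 1 mouse summed, or the 12 mutant tumors fitted alone, Wnt4 kept its call and Rspo1 did not.

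Against MaP -/- tumors neither gene passed. Wnt4 was at a log2 fold change of 1.26 ± 0.87 (SE) in MaP R172H/- tumors (edgeR adjusted p = 0.394) and -2.12 ± 0.86 in MaP R245W/- tumors (edgeR adjusted p = 0.384). Rspo1 was at 2.46 ± 1.51 (edgeR adjusted p = 0.332) and -3.53 ± 1.27 (edgeR adjusted p = 0.362), with the same MaP -/- tumors in both. Several tumors high in these genes carried other marks. YZ4 also had the most Krt5 (440.3 CPM, a basal keratin), the highest basal sum (3460 CPM) and the most progesterone receptor, Pgr, at 81.5 CPM against 0.188 to 11.1 in the other 17 tumors. YZ7 had the most Trp63, a basal transcription factor, at 188 CPM, and the lowest Krt8, a luminal keratin, at 18.1. It also had the highest sum of 4 Schwann cell markers, 855.3 CPM (119 to 855.3 in MaP R172H/-, 6.75 to 324 in MaP R245W/- and 6.72 to 201 in MaP -/- tumors). JM833-T1 had the highest adipocyte sum, 5547 CPM, and the second highest Pgr, 11.1 CPM. The other 2 tumors high in Wnt4 did not have such Pgr levels: Pgr was at 2.12 CPM in YZ11 and 1.98 in JM663-T2. Nor did YZ7, the tumor with the most Rspo1: its Pgr level of 0.396 CPM was the lowest of the MaP R172H/- tumors. The part of these values in Wnt4 and Rspo1 was not tested.

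The promoters of the 2 called members are shown because the genes share a direction in the same comparison. Both lie on the plus strand of chromosome 4 in GRCm39, Wnt4 (ENSMUSG00000036856.5) at 137004373 to 137027037 and Rspo1 (ENSMUSG00000028871.8) at 124879876 to 124902892. RefSeq promoters, from 250 bases before to 50 after each gene's start, come from GRCm38.p6, and 29 of 45 members have 1 or more, 32 in all. Capitals mark CG dinucleotides.
Wnt4, chr4:137277385-137277684, plus strand: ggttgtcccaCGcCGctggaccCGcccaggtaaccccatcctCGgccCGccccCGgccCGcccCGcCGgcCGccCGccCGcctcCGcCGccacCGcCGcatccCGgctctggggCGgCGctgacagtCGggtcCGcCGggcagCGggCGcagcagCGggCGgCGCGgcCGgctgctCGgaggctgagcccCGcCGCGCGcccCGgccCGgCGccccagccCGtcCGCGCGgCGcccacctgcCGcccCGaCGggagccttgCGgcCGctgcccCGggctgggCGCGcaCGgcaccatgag
Rspo1, chr4:124986180-124986479, plus strand: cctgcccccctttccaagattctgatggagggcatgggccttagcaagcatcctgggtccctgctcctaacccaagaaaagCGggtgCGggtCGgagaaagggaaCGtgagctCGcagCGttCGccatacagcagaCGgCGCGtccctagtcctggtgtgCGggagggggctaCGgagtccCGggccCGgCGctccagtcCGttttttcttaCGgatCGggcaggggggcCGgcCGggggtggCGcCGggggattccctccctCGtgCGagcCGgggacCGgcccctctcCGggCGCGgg
The Wnt4 promoter has 84.3% G or C and 51 CG dinucleotides and that of Rspo1 69.0% and 29, against a median of 52.7% and 7 over all 32851 promoters in the table. This was not particular to them. The 32 promoters of members ran from 48.3% (Wnt8b) to 86.3% (Wnt3a) G or C, and only that of Wnt8b lay below 52.7%. Neither holds, on either strand, the TCF/LEF letters CTTTGAA or CTTTGAT, the spaced hormone response element ACANNNTGT or the NR5A letters CAAGGTCA. Those motifs are in 8.65%, 6.85% and 1.56% of all promoters. Among the 32 promoters of members, TCF/LEF letters were in 3, those of Dkk1, Wnt11 and a Wnt5b start, hormone response letters in 2 (Wnt1 and a Wnt5b start) and NR5A letters in 0. Exact letters were sought here in a short stretch, whereas the study scanned a far longer upstream stretch with motif tools. The searches are thus not comparable.

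Several further ligands were far higher in 1 tumor than in the median tumor. By the rule for such genes, a level of at least 5 CPM that is at least 10 times the median over 18 tumors, Wnt2, Wnt5a, Wnt6, Wnt7a, Wnt10a and Wnt10b qualified beside Wnt4. Wnt2, made by stroma in the normal gland, was at 42.8 CPM in YZ11 and at no more than 6.54 in the other 17 tumors, with a median of 1.74 over all. The direction in MaP R172H/- against MaP -/- tumors turned on that tumor: its log2 fold change was 1.01 ± 1.13 (SE; edgeR adjusted p = 0.620) with YZ11 and -1.94 (edgeR adjusted p = 0.0694) without it, and DESeq2's Wald test gave -1.68 (adjusted p = 0.0254). DESeq2's default settings replaced the 949 counts of YZ11 by 44 in that test, so its value too leaves out the high level of YZ11, with which the MaP R172H/- mean was 6.88 CPM against 3.44 in MaP -/- tumors. In the 6 other MaP R172H/- tumors Wnt2 was at 0.0440 to 1.76 CPM, against 1.34 to 6.54 in MaP -/- tumors, so the ranges overlapped narrowly. YZ11 also had the highest luminal sum (8162 CPM) and the lowest fibroblast sum (2414 CPM). Wnt2 lies 411 kb from Met on chromosome 6. Met was at 11570 CPM in YZ11 and reached 15880 CPM in JM663-T1, where Wnt2 was at 1.34. A link between the levels of these neighbors was not tested.

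Wnt6 and Wnt10a are neighbors 5.7 kb apart on chromosome 1, on the same strand, and were high in different tumors. Wnt6 was at 50.7 CPM in YZ7, where Wnt10a was at 0.308, and at no more than 3.15 (YZ4) in the other 17. Wnt10a, a ligand of ectodermal appendages and mammary buds, was at 28.1 CPM in JM1126, 14.4 in JM1233, 11.9 in JM663-T2 and 8.05 or less elsewhere. The Wnt6 value of 3.99 ± 1.52 (log2, SE; edgeR adjusted p = 0.123) in MaP R172H/- against MaP -/- tumors did not pass, and without YZ4, YZ6 or YZ7 the gene was too low to be tested there. DESeq2's Wald test, in which the 1151 counts of YZ7 were replaced by 12, gave 0.80 (adjusted p = 0.617).

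JM1126 was the highest tumor for 10 of the 35 members tested, more than any other tumor, followed by YZ7 with 6. Its 10 were Wnt2b, Wnt5a, Wnt7a, Wnt10a, Wnt11, Fzd1, Sfrp1, Sfrp2, Frzb and Dkk3. Wnt5a was at 176 CPM there and between 1.75 and 49.3 in the others. Wnt7a, a close relative of Wnt7b, was at 47.5 CPM there, 4.19 in JM663-T2 and 0.740 or less in the other 16. JM1126 also had the highest fibroblast marker sum of all tumors, 29110 CPM against 13520 in JM1233, the next highest. The study classed JM1126 as a sarcoma, the only tumor it classed so, and JM1233 as a metaplastic sarcomatoid carcinoma. The part of fibroblast content or of tumor histology in these levels was not tested.

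Wnt10b, the viral insertion gene that is also known as a brake on fat cell formation, was at 31.0 CPM in JM1233 and no more than 3.52 elsewhere. JM1233 had the highest skeletal muscle sum (893.5 CPM; 6 markers, 2.78 to 18.9 in MaP R172H/-, 3.50 to 893.5 in MaP R245W/- and 3.09 to 6.43 in MaP -/- tumors), and its part was not tested. Wnt10b overlaps Wnt1 by 2308 bp on the opposite strand of chromosome 15, and the libraries were stranded. In JM1233 Wnt1 had no counts. Wnt16 was at 11.9 CPM in YZ6 and 14.3 in JM836-T1 and at 2.63 or less in the other tumors. Fam3c, 8 kb away on the opposite strand of chromosome 6, was highest in the same 2 tumors, at 2961 and 5406 CPM against 832 or less elsewhere.

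The Frizzleds were steadier, and none passed the test in any comparison. Fzd7, the leading receptor and one linked to mammary stem cells and basal-like breast cancer, led per kb in 14 of 18 tumors. It was at 121 to 235 CPM in MaP R172H/- tumors (median 147), at 34.2 (JM1233), 165 (JM1564), 221 (RM0014), 46.3 (JM1126) and 175 (JM1133) in MaP R245W/- tumors, and at 86.0 to 159 in MaP -/- tumors (median 119). JM1233 and JM1126 were the 2 lowest tumors of the 18 for Fzd7, and in them Fzd1 led instead. Fzd4, also the receptor of norrin in blood vessels, led in JM833-T1 and Fzd9 in YZ7.

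In MaP R172H/- against MaP -/- tumors 0 of 33 members tested passed (8.4% of all 20954 genes did), and 0 of 33 had groups that did not overlap (4.62% of genes). At an unadjusted p below 0.05 there were 7 members (24.7% of genes), 5 of them Frizzleds: Fzd2, Fzd4, Fzd7, Fzd8 and Fzd10, with Wnt6 and Dkk2. With DESeq2's Wald test 3 of 44 members passed (7.81% of all genes), Fzd2 and Fzd8 higher and Wnt2 lower in MaP R172H/- tumors, the last with the high count of YZ11 replaced by its default settings. The log2 fold change was above 0 for 9 of 10 Frizzleds, with a median of 0.71, and for 27 of 33 members, with a median of 0.41. Above 0 were 50.2% of all genes, with a median of 0.0027, and 54% of protein-coding genes, with a median of 0.054. Fzd2 had the smallest adjusted p. It was at 10.3 to 30.3 CPM in MaP R172H/- tumors (median 16.1) and 4.78 to 15.5 in MaP -/- tumors (median 7.19), and its log2 fold change was 1.06 ± 0.32 (SE; 95% interval 0.37 to 1.76; edgeR adjusted p = 0.0598). The groups overlapped through JM663-T2, at 15.5 CPM, without which Fzd2 passed (1.33; edgeR adjusted p = 0.0275).

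Fzd8 was at 6.21 to 26.2 CPM in MaP R172H/- tumors (median 10.7) and 1.96 to 8.70 in MaP -/- tumors (median 4.96). Its log2 fold change was 1.40 ± 0.45 (SE; edgeR adjusted p = 0.0718), and it passed without YZ7 (1.52; edgeR adjusted p = 0.0491). Fzd10, the lowest Frizzled, was at 2.06 ± 0.88 (SE; edgeR adjusted p = 0.163) and Fzd7 at 0.44 ± 0.19 (edgeR adjusted p = 0.170). Fzd4 went the other way, at -1.50 ± 0.58 (SE; edgeR adjusted p = 0.129). It was at 202 CPM in JM833-T1, 47.4 in JM833-T2 and 10.6 to 35.0 in the other 16 tumors, and without JM833-T1 the value was -0.36. Adipocyte markers were highest in the same 2 tumors, at sums of 5547 and 529.6 CPM, and their part in the Fzd4 level was not tested.

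**Figure D4:**
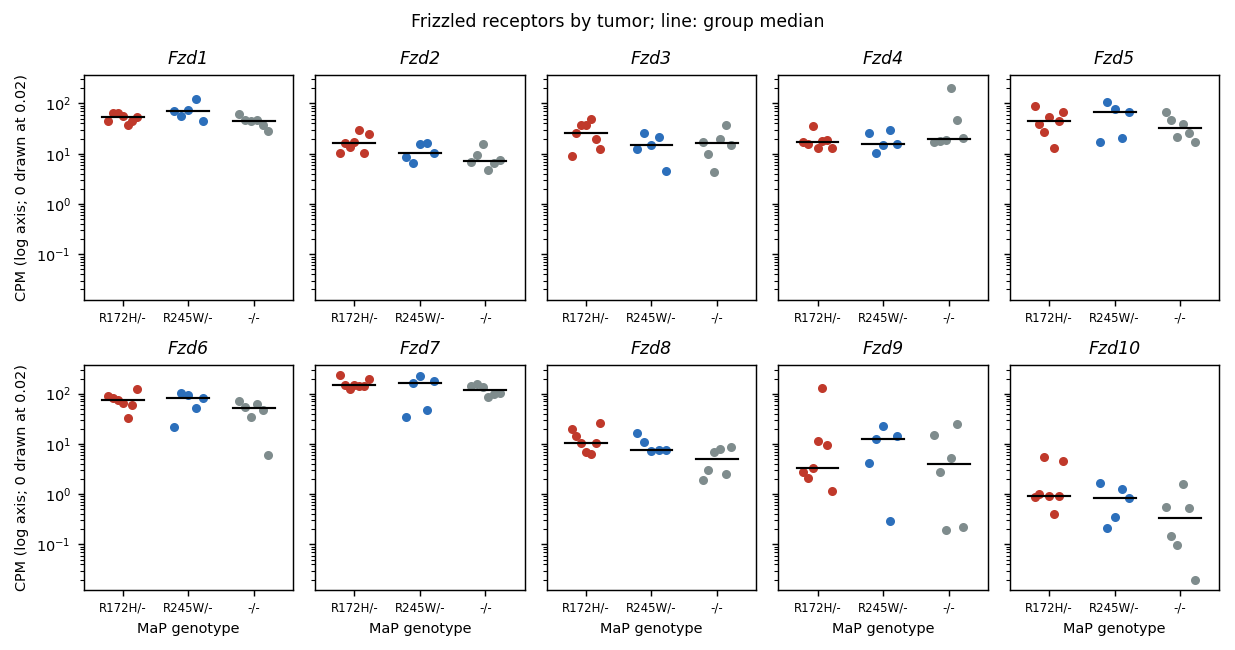
The 10 Frizzled receptors in each tumor (points) by genotype, in CPM on a log axis shared by all panels, with the group median as a line and 0 drawn at 0.02. Fzd7 lies between 34.2 and 235 CPM, Fzd2 and Fzd8 have higher medians in MaP R172H/- than MaP -/- tumors (16.1 against 7.19 and 10.7 against 4.96), and 1 MaP -/- tumor stands at 202 for Fzd4 and 1 MaP R172H/- tumor at 128 for Fzd9.

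Fzd9 varied most of the Frizzleds with a median above 1 CPM. It was at 128 CPM in YZ7, 24.9 in JM833-T2 and 22.97 in RM0014, and at or below 0.288 in JM663-T2, JM779-T1 and JM1126. Fzd1, Fzd3, Fzd5 and Fzd6 stayed within 28.6 to 121, 4.35 to 48.2, 12.9 to 106 and 6.01 to 124 CPM. Lrp6 was the steadiest member, at 257 to 495 CPM in MaP R172H/- tumors (median 367), 287, 412, 447, 235 and 452 in JM1233, JM1564, RM0014, JM1126 and JM1133, and 252 to 447 in MaP -/- tumors (median 307). Its intervals were narrow and spanned 0: -0.23 to 0.67 for MaP R172H/- and -0.38 to 0.66 for MaP R245W/- against MaP -/- tumors, and -0.42 to 0.54 between the mutants. Lrp5 was at 71.8 CPM in JM1233 to 415 in RM0014, and its intervals were -0.06 to 0.87, -0.27 to 1.48 and -0.93 to 0.47.

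In MaP R245W/- against MaP -/- tumors 0 of 32 members passed, as did 0% of the 21452 genes tested, and 0 of 32 had groups that did not overlap (1.32% of genes). DESeq2 called 0 of 41 members (1.01% of genes), and with edgeR 4 members had an unadjusted p below 0.05 (11.8% of genes): Rspo1 and Wnt4, given above, Wnt7b, and Fzd1. Fzd1 was at 70.6, 55.7, 74.0, 121 and 43.9 CPM in JM1233, JM1564, RM0014, JM1126 and JM1133 and at 28.6 to 61.6 in MaP -/- tumors (median 45.8). Its log2 fold change was 0.72 ± 0.27 (SE; edgeR adjusted p = 0.368), and 0.46 without JM1126. Of the tested members 23 of 32 were above 0, with a median of 0.61. Above 0 were 51.8% of all genes, with a median of 0.02, and 62.6% of protein-coding genes, with a median of 0.12. Only Lrp6 had a 95% interval within 1 log2 unit of 0, as did 8670 of all 21452 genes, and the intervals of the other 31 members reached past it.

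Among the antagonists Sfrp1, often silenced in breast cancer, led per kb in 13 of 18 tumors, Sfrp2 in JM1233 and JM1126, Wif1 in YZ4 and JM836-T1, and Sfrp5 in JM833-T1. Sfrp1 was at 47.5 to 138 CPM in MaP R172H/- tumors (median 82.2), at 21.9, 56.0, 67.8, 175 and 83.0 in JM1233, JM1564, RM0014, JM1126 and JM1133, and at 10.6 to 117 in MaP -/- tumors (median 42.2). The 3 groups overlapped. Sfrp2, a fibroblast product in many tissues, was at 138 CPM in JM1126 and 78.8 in JM1233, the 2 tumors with the highest fibroblast sums, and at 0.865 to 18.9 elsewhere. Wif1 was at 66.3 CPM in YZ4 and 40.1 in JM836-T1 and between 0.192 and 21.0 in the others. JM833-T1 had the most Sfrp5, an adipocyte-secreted factor, at 21.96 CPM, and the most Sfrp4 at 28.9, together with its adipocyte sum of 5547 CPM, whose part was not tested. No antagonist passed a test: between the mutants Frzb was at -1.53 ± 0.57 (log2, SE; edgeR adjusted p = 0.0984) and Sfrp2 at -2.24 ± 0.92 (edgeR adjusted p = 0.132), and without JM1126 these were -0.77 and -1.18.

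The Dickkopf genes were present as Dkk3 and Dkk2. Dkk3, which unlike its relatives is not a clear Lrp5 and Lrp6 inhibitor, led in 17 of 18 tumors. It was at 10.9 to 143 CPM in MaP R172H/- tumors (median 28.3), at 30.9, 12.2, 74.3, 225 and 50.6 in JM1233, JM1564, RM0014, JM1126 and JM1133, and at 4.56 to 90.8 in MaP -/- tumors (median 36.8), with no test passed. Dkk2 led in JM779-T1, at 60.6 CPM against 1.42 to 15.5 in the other 17 tumors. Its log2 fold change in MaP R172H/- against MaP -/- tumors was -1.64 ± 0.75 (SE; edgeR adjusted p = 0.190), and without JM779-T1 it was 0.04. JM779-T1 also had the lowest luminal sum, 147 CPM, and the lowest basal sum, 45.8 CPM, of all tumors.

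Of the other R-spondins, Rspo2, a viral insertion gene, was at 8.69 CPM in YZ6 (222 counts) and 0.429 or less elsewhere, and was filtered out of every test for low counts. Rspo3 was between 0 and 3.21 CPM and Rspo4 between 0 and 1.06. Rspo1 led the R-spondins in 10 tumors and Rspo3 in 7, of which 4 were MaP R245W/- tumors.

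Between the mutants the remaining members at an unadjusted p below 0.05 were ligands, apart from Frzb and Sfrp2. With Wnt4 and Rspo1 there were 8 of 35, against 25.9% of genes. Wnt7a was at -4.79 ± 1.73 (log2, SE; edgeR adjusted p = 0.0901) and 0.80 without JM1126, and Wnt10b at -2.35 ± 1.10 (edgeR adjusted p = 0.185) and 0.57 without JM1233. Wnt6 was at 4.12 ± 1.62 (edgeR adjusted p = 0.118) and 0.98 without YZ7, and Wnt9a at -1.13 ± 0.53 (edgeR adjusted p = 0.186). Over all 35 members tested the median was 0.06, and 19 were above 0.

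**Figure D5:**
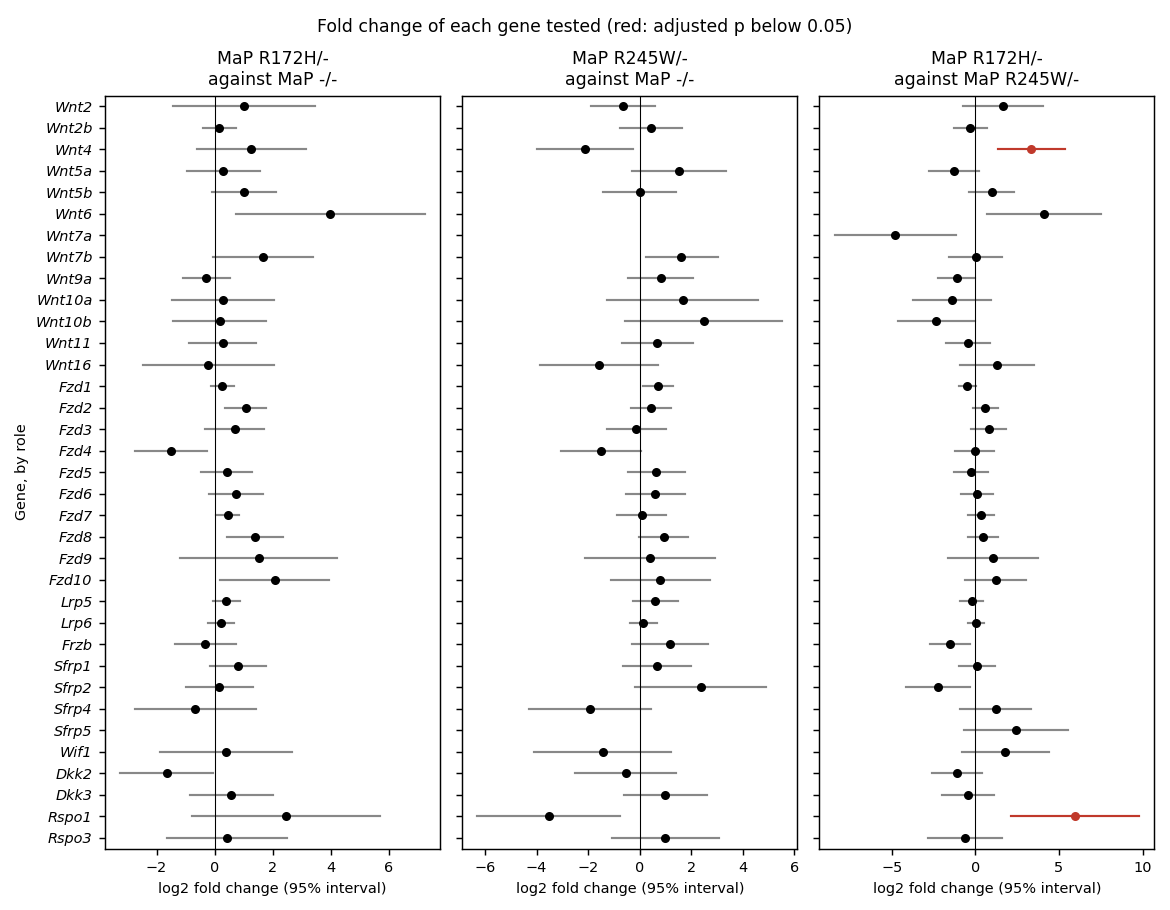
Log2 fold change (points) with its 95% interval (lines) for each member tested in each of the 3 comparisons, from edgeR, with red for an adjusted p below 0.05. Red appears in the right panel alone, for Wnt4 (3.36) and Rspo1 (5.96), and in the left panel 9 of 10 Frizzleds lie right of 0.

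Tumors of 1 mouse differed from each other in many members. Of the 38 members that reached 1 CPM in any tumor, 17 differed more than 2-fold between JM663-T1 and JM663-T2 and 16 between JM833-T1 and JM833-T2, and 8 and 9 more than 4-fold. Wnt4 was 17.4-fold and Wnt10a 15.7-fold higher in JM663-T2 than in JM663-T1. Fzd4 was 4.26-fold and Rspo1 8.69-fold higher in JM833-T1 than in JM833-T2.

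The rest of the pathway was described by 69 other genes: receptors, secretion factors, Frizzled ligases, inhibitors, cytoplasmic and nuclear components and planar polarity genes. In MaP R172H/- against MaP -/- tumors 5 of 66 tested were higher (3.67% of all genes) and 0 lower (4.73%) at an adjusted p below 0.05 with edgeR. The list median was 0.25, against 0.0027 for all genes and 0.054 for protein-coding genes. Sostdc1, a secreted inhibitor of Wnt and bone morphogenetic protein signals, was at 0.106 to 41.8 CPM in MaP R172H/- tumors (median 2.57), 0 to 0.305 in MaP R245W/- tumors and 0 to 0.524 in MaP -/- tumors. It was highest in YZ4 and overlapped the other groups through YZ3 and YZ10. For low counts it was filtered out of the test of MaP R245W/- against MaP -/- tumors, and it reached the other tests only through the MaP R172H/- tumors in which it is high. It rose by 5.38 ± 1.31 (log2, SE; edgeR adjusted p = 0.0233), or 3.70 without YZ4, and the call was lost without JM663-T2 (edgeR adjusted p = 0.0572) and with tumors of 1 mouse summed (edgeR adjusted p = 0.0794). The nuclear beta-catenin partner Bcl9l rose by 1.04 ± 0.23 (edgeR adjusted p = 0.0150), and the co-repressor Tle1, the signal transducer Dvl1 and the polarity gene Scrib rose by 0.66, 0.61 and 0.60 (edgeR adjusted p of 0.0312, 0.0361 and 0.0387), calls that were lost under 12, 14 and 14 of 21 alternatives. With an absolute log2 fold change above 1 as well, 2 passed (5.02% of all genes), and above 2, 1 did (1.37%).

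In MaP R245W/- against MaP -/- tumors 0 of 65 of these genes passed with edgeR (0% of all genes) and 1 of 69 with DESeq2 (1.01%), the co-repressor Ctbp1, which was also the 1 of 65 that did not overlap between the groups (1.32% of genes). With edgeR 3 had an unadjusted p below 0.05 (11.8% of genes). Between the mutants 3 of 67 were higher in MaP R172H/- tumors (2.91% of all genes), Sostdc1 by 5.93 ± 1.42 (log2, SE; edgeR adjusted p = 0.0137), Bcl9l by 1.34 ± 0.27 (edgeR adjusted p = 0.00375) and Dvl3, also a signal transducer, by 0.80 ± 0.20 (edgeR adjusted p = 0.0199). Kremen1, a receptor for Dickkopf proteins, was the 1 gene that was lower (6.49% of all genes), at -0.76 ± 0.23 (edgeR adjusted p = 0.0480), a call lost under 20 of 26 alternatives. With an absolute log2 fold change above 1 as well, 2 passed (6.19% of all genes), and above 2, 1 did (2.34%). Bcl9l did not overlap between the mutants: 56.0 to 101 CPM in MaP R172H/- and 22.5 to 49.7 in MaP R245W/- tumors. Nor did Apc2, a relative of Apc in the destruction complex, at 3.39 to 18.8 and 1.92 to 2.93 CPM (edgeR adjusted p = 0.0862, not passed), which makes 2 of 67 genes against 5.83% of all genes. Axin2, a common target of beta-catenin, was at 10.6 to 27.7 CPM in MaP R172H/- tumors (median 15.7), 5.56 to 19.9 in MaP R245W/- tumors (median 8.93) and 1.94 to 15.2 in MaP -/- tumors (median 9.46), and it passed in no comparison (edgeR adjusted p of 0.160, 0.876 and 0.338).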

How the data were processed

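Total RNA from 18 mouse mammary tumors was depleted of ribosomal RNA and sequenced in stranded libraries. The authors deposited counts per gene, which were made with STAR 2.7.10b and RSEM 1.3.3 on GRCm39 with a GENCODE annotation. They are whole numbers and were used as deposited, with 23113578 to 37365062 counts a tumor. The columns of each tumor were matched to its label by name.

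Levels are CPM with TMM-scaled library sizes, and for levels between genes CPM per kb of the union of exons. Genes were filtered by filterByExpr and tested with the quasi-likelihood test of edgeR 4.0.16 in R 4.3.3, with Benjamini-Hochberg adjustment over all genes tested and a threshold of 0.05. Each mutant was fitted with the MaP -/- tumors, and the mutants were compared in 1 fit of all 18 tumors. The MaP -/- tumors of 1 mouse entered as separate samples, so p-values measure the spread between tumors.

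Members and gene lists were chosen with earlier results of these data known. Values by tumor were given for members that passed the test, did not overlap between groups, led their class per kb, or reached 5 CPM and 10 times their median in a tumor. Members at an unadjusted p below 0.05, and those that illustrate ranges, were named after their values were seen. Alternatives were DESeq2 1.42.0 (size factors and Wald test, whose default settings replace outlying counts in groups as large as MaP R172H/-), no filter or a mean CPM of at least 1, summed tumors of 1 mouse, another set of samples in the fit, protein-coding genes alone, fold thresholds (log2) of 1 and 2, length by longest transcript, and each tumor left out. Leaving out both tumors of mouse JM833 was chosen after seeing the data. Promoters are from a RefSeq table on GRCm38.p6, and no coordinate was converted between builds.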

Additional observations from a re-analysis of the deposited data

Results flagged for a closer look

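Each member was searched, in each genotype, for a tumor standing apart from the rest of its group by Dixon's test, which flags about 5% of groups by chance. There were 5 such tumors in 105 groups. Fzd4 was at 34.98 CPM in YZ4, with 18.8 the next highest MaP R172H/- tumor. Fzd6 was at 6.01 CPM in JM779-T1, with 34.9 the next lowest MaP -/- tumor. Wnt11, which acts in branching of several organs, was at 14.2 CPM in JM1126, with 2.94 the next highest MaP R245W/- tumor. Frzb was at 0.123 CPM in JM833-T1, with 1.05 the next lowest MaP -/- tumor. Sfrp5 was at 4.80 CPM in YZ7, with 0.548 the next highest MaP R172H/- tumor.

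The effects of the mutants, each against the same MaP -/- tumors, differed for Wnt4 by 3.36 and for Rspo1 by 5.96 on the log2 scale, which is the direct comparison of the mutants with edgeR.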

How the results depend on the processing

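The number of members that passed was sensitive to single tumors. In MaP R172H/- against MaP -/- tumors it was 0, 3 with DESeq2's Wald test (Wnt2 with its YZ11 count replaced), 1 (Fzd8) with all 18 tumors in 1 fit, and 0 to 1 with a tumor left out (Fzd8 without YZ7, Fzd2 without JM663-T2). In MaP R245W/- against MaP -/- tumors it was 0 under all 21 alternatives. Between the mutants it was 2, 0 with no filter, 1 (Wnt4) with a mean CPM of at least 1, tumors of 1 mouse summed, the 12 mutant tumors alone or protein-coding genes alone, and 0 to 3 with a tumor left out. Wnt4 kept its call under 18 of 26 alternatives (adjusted p 0.00099 to 0.0842) and Rspo1 under 8 of 26 (0.000153 to 0.0966), and both kept their direction under all 26. Frzb passed without JM833-T1 (adjusted p = 0.0490).

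Of the 69 other pathway genes 5 passed in MaP R172H/- against MaP -/- tumors, 2 at a fold threshold (log2) of 1 and 1 at 2, 2 with no filter, 1 (Bcl9l) with tumors of 1 mouse summed, 3 with all 18 tumors in 1 fit, 3 without both JM833 tumors and 1 to 5 with a tumor left out. In MaP R245W/- against MaP -/- tumors 0 passed, 1 with DESeq2's Wald test. Between the mutants 4 passed, 2 and 1 at the fold thresholds and 3 to 5 with a tumor left out. Bcl9l kept its call under all 21 and 26 alternatives in its 2 comparisons.

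Directions that turned, with the range over fits that left out a tumor, were those of Wnt2 in MaP R172H/- against MaP -/- tumors (-1.68 with DESeq2's Wald test; -1.94, without YZ11, to 1.29), Dkk2 there (-1.88 to 0.038, without JM779-T1), Fzd4 there (0.023 without both JM833 tumors), and, between the mutants, Wnt7a (-5.11 to 0.80, without JM1126) and Wnt10b (-2.66 to 0.57, without JM1233). For these the cause beyond the tumors named was not tested. By the longest transcript Lrp6 was at 37.2 CPM per kb. No paired analysis was possible because replicate numbers were given in accession order and tie no tumors across groups.

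Groups held 5 to 7 tumors, and intervals were wide: those of 5 of 33, 1 of 32 and 3 of 35 members lay within 1 log2 unit of 0 in the 3 comparisons. Of all genes tested 9389 of 20954 did so in MaP R172H/- and 8670 of 21452 in MaP R245W/- against MaP -/- tumors. Depth limits the 7 members below 1 CPM.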
